A study of Arabidopsis thaliana with 4 samples.

Results

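The transcripts of 6 heat shock protein genes were followed in rosette leaves of an Arabidopsis thaliana line with an antisense construct against AOX1a and of the wild type. The members were given as 6 probe sets with their loci: HSP101 (AT1G74310, probe set 260248_at), HSP90.1 (AT5G52640, 248332_at), HSP70 (AT3G12580, 256245_at), the small heat shock proteins HSP18.2 (AT5G59720, 247691_at) and HSP17.4 (AT3G46230, 252515_at), and the plastid small heat shock protein HSP21 (AT4G27670, 253884_at). All 6 were found among the 22746 probe sets that are not array controls, and their 6 loci carry these symbols in the RefSeq gene table. The pairing of probe set and locus came with the request for these genes and could not be checked against an array annotation here.

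The antisense line, AS12, is Columbia (Col-0) transformed to express AOX1a (At3g22370) in antisense orientation from the 35S promoter of cauliflower mosaic virus, which is active in most plant tissues. It is 1 transformed line, so an effect of the antisense RNA and an effect of where the construct inserted cannot be told apart. The other group is called wild type in the labels, with no construct named. Leaves were taken late in the morning from plants 21 days after sowing, grown at 23 °C in unfertilised soil-less mix with a 14 h photoperiod at a light level of 350 µmol photons m-2 s-1. No heat treatment is named for any of the plants. Each genotype was measured on 2 Affymetrix ATH1 arrays, each with RNA pooled from separate plants: 9 (antisense 1) and 8 (antisense 2), against 7 (wild type 1) and 9 (wild type 2). The level of AOX1a was not analysed here, so the genotype labels were not checked against it.

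Heat shock proteins are molecular chaperones. When proteins unfold in the heat, heat shock transcription factors bind their promoters and the transcripts of many of them accumulate strongly within minutes. Small heat shock proteins hold unfolded proteins in a state from which they can be rescued, HSP70 and HSP90 help them fold, and HSP101 pulls proteins out of aggregates and is needed for plants to acquire thermotolerance. In leaves that are not stressed, the heat-inducible members are usually weakly expressed. Alternative oxidase, the target of the antisense construct, accepts electrons from ubiquinol in the mitochondrial inner membrane and so bypasses the cytochrome pathway.

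A signal is the deposited intensity of a probe set in arbitrary linear units, scaled by the authors so that all arrays share 1 trimmed mean of 500.05. Array controls for 27 Bacillus probe sets, whose transcripts plants do not make, showed what dim signals mean on this scale. Their median was 7.6 and 6.9 on antisense 1 and 2, against 6.5 and 9.8 on wild type 1 and 2, and the highest reached 60.2 and 42.8, against 67.7 and 97.2. HSP70 and HSP90.1 read above all 27 of them on every array. The other 4 members lay in the range of these controls on at least 3 of the 4 arrays, and they belong to the 40% of probe sets with the lowest mean log2 signal, a group cut at a geometric mean of 97.4. The fit that served as the main test left this group out, so 2 of the 6 members passed the filter. For the other 4, the test values come from the fit without a filter, and their differences are differences between dim signals. In RNA of whole leaves, fewer cells with a transcript and less of it per cell cannot be told apart.

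Neither HSP70 nor HSP90.1 differed between the genotypes beyond the spread between arrays. HSP70, a heat-inducible cytosolic chaperone of the HSP70 family, read 360.8 and 181.1 in the antisense line (arrays 1 and 2), against 566.9 and 258.3 in the wild type. The groups overlapped, with antisense 1 above wild type 2. The means were 271 ± 127 in antisense leaves and 412.6 ± 218 in wild-type leaves (SD, n = 2 each). The log2 difference, antisense minus wild type, was -0.58 (SE 0.47, 95% interval -1.71 to 0.55), which spans a signal ratio of 0.305 to 1.46. Limma's test gave an unadjusted p of 0.257 and an adjusted p above 0.99 over 13648 probe sets. The size of this difference rests on 2 arrays, as it was -0.02 without wild type 1 and -0.08 without antisense 2, against -1.08 without antisense 1 and -1.15 without wild type 2.

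HSP90.1, the strongly heat-inducible member among the cytosolic HSP90 chaperones, read 220.2 and 169.4 in the antisense line, against 278.6 and 204.9 in the wild type. Again antisense 1 lay above wild type 2, so the groups overlapped. The means were 195 ± 35.9 in antisense leaves and 242 ± 52.1 in wild-type leaves (SD, n = 2 each). The log2 difference was -0.31 (SE 0.26, 95% interval -0.94 to 0.33; limma, unadjusted p = 0.286, adjusted p above 0.99). Leaving out wild type 1 moved it to -0.09, leaving out antisense 2 to -0.12, leaving out antisense 1 to -0.50 and leaving out wild type 2 to -0.53.

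**Figure D1:**
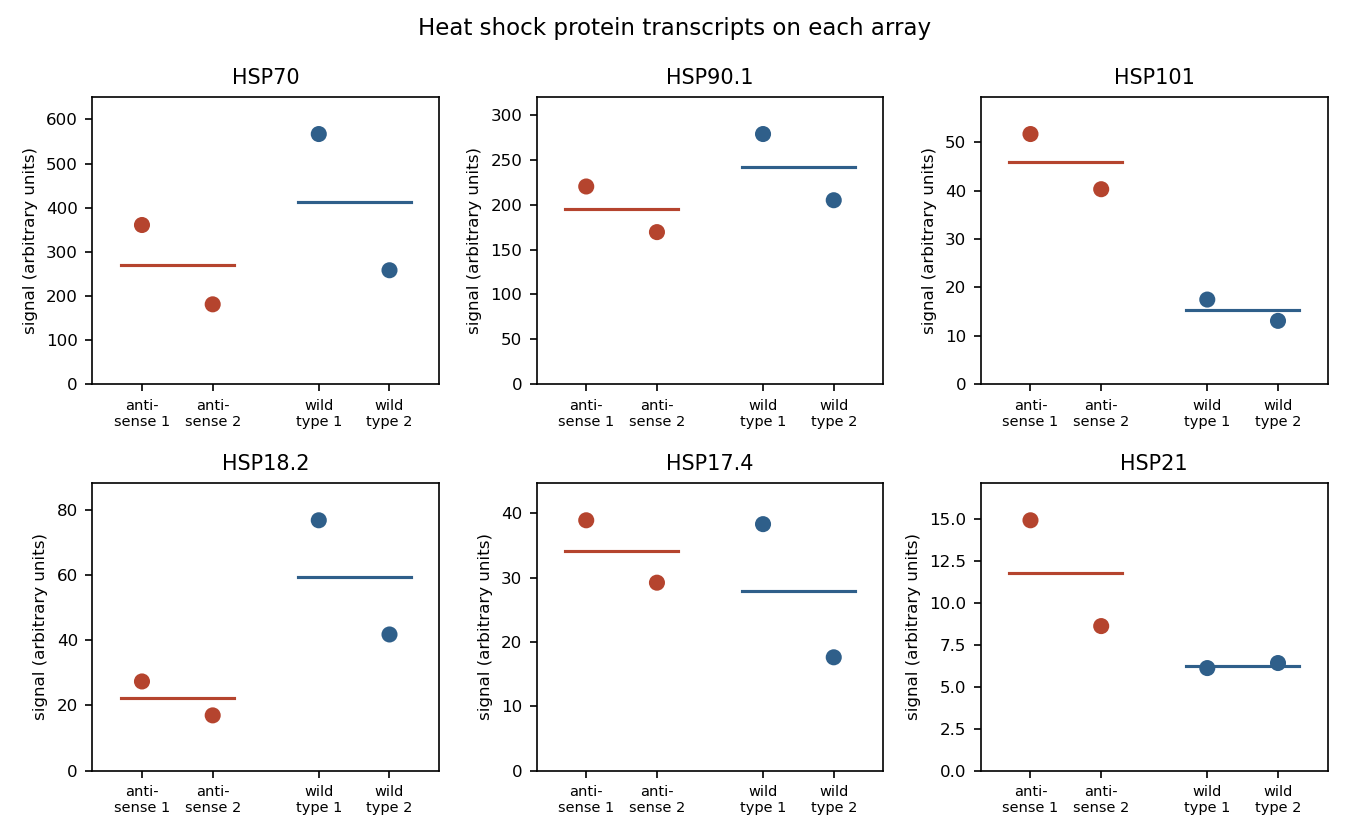
Signal of each heat shock protein transcript (arbitrary linear units, axes start at 0 and differ between panels) on the 4 arrays, with antisense arrays in red, wild-type arrays in blue and a line at the mean of each pair. Array 1 lies above array 2 within both genotypes for every transcript but HSP21, where the wild-type arrays read 6.1 and 6.4.

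Among the dim members, HSP101 and HSP18.2 separated the genotypes in opposite directions, and HSP21 separated them in the direction of HSP101. Of the 9098 probe sets below the filter, 32.2% separated the genotypes in either direction. HSP101, the disaggregating chaperone of the HSP100 family, read 51.7 and 40.3 in the antisense line, against 17.5 and 13.1 in the wild type. Both antisense arrays were higher (log2 difference of the deposited signals 1.59, SE 0.59, 95% interval 0.15 to 3.04). In the fit without a filter, limma's unadjusted p was 0.0359 and the adjusted p above 0.99. An unadjusted p under 0.05 was found for 3.51% of the 22746 probe sets. On the antisense arrays 3 and 2 of the 27 Bacillus controls read at or above HSP101, against 7 and 11 on the wild-type arrays. The log2 difference of HSP101 is therefore not read as a fold change of the transcript. With the array number as a replicate block, the interval of HSP101 included 0 (-0.03 to 3.21; limma without a filter, unadjusted p = 0.0528).

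HSP18.2, a cytosolic class I small heat shock protein, read 27.3 and 16.9 in the antisense line, against 76.7 and 41.7 in the wild type. Both antisense arrays were lower (log2 difference of the deposited signals -1.40, SE 0.61, 95% interval -2.90 to 0.11; limma without a filter, unadjusted p = 0.0638, adjusted p above 0.99). Of the 27 Bacillus controls, 7 and 9 read at least as high on the antisense arrays, against 0 and 1 on the wild-type arrays. The log2 difference of HSP18.2 is not read as a fold change of the transcript either. The log2 difference was -0.96 without wild type 1 and -1.84 without wild type 2.

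HSP17.4, another cytosolic class I small heat shock protein, did not go the way of HSP18.2. It read 38.9 and 29.2 in the antisense line, against 38.3 and 17.6 in the wild type, and the groups overlapped. Its log2 difference was 0.38 (SE 0.65, 95% interval -1.22 to 1.97; limma without a filter, unadjusted p = 0.583, adjusted p above 0.99), and leaving out antisense 1 or 2 gave 0.17 or 0.58, while leaving out wild type 1 or 2 gave 0.94 or -0.18.

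HSP21, the small heat shock protein of the plastid, was the dimmest against the controls. It read 14.9 and 8.6 in the antisense line, against 6.1 and 6.4 in the wild type. Both antisense arrays were higher, but 10 and 11 of the 27 Bacillus controls read at least as high there, against 15 and 15 in the wild type. The log2 difference was 0.86 (SE 0.75, 95% interval -0.99 to 2.70; limma without a filter, unadjusted p = 0.297, adjusted p above 0.99), and it was 0.46 without antisense 1 and 0.45 when an offset of 8.1 was added to all signals before the log.

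No member was called. Limma called 0 of 2 members at an adjusted p of 0.05 with the filter, where 0% of the 13648 probe sets were called in either direction, and 2.78% had an unadjusted p under 0.05, none of them a member. Without the filter it called 0 of 6, again beside 0% of all, and 1 of 6 had an unadjusted p under 0.05. Of the 6 signals, 3 were on average higher in antisense leaves and 3 were lower. The median log2 difference over the 6 was 0.03, beside -0.03 over all 22746 probe sets. An exact permutation test of 2 against 2 arrays reaches 0.333 at the lowest (two-sided), so single members were not tested that way. P-values here rest on the spread between 2 pools of plants per genotype, moderated by limma toward that of other probe sets of similar signal. The borrowed part weighs more, with 4.25 prior against 2 residual degrees of freedom (3.86 prior without the filter).

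**Figure D2:**
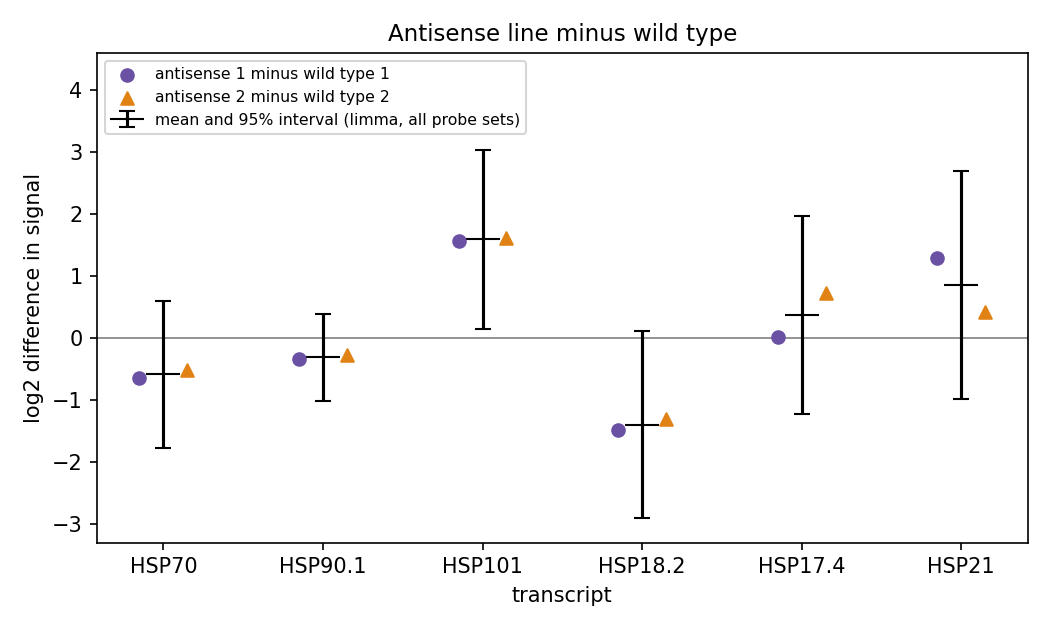
Log2 difference in signal, antisense minus wild type, for each transcript: circles for the arrays numbered 1, triangles for those numbered 2, and a bar at the mean with limma's 95% interval from the fit without a filter (2 arrays per genotype). HSP70 and HSP90.1 lie below 0 for both numbers and HSP101 near 1.6 for both, while every interval but that of HSP101 includes 0 in this fit without a replicate block. The labels do not pair the arrays by number.

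The genotypes were also compared between arrays of the same number. HSP70 differed by -0.65 log2 units between antisense 1 and wild type 1 and by -0.51 between antisense 2 and wild type 2. HSP90.1 differed by -0.34 and -0.27, HSP101 by 1.56 and 1.62, and HSP18.2 by -1.49 and -1.30. HSP17.4 differed by 0.02 and 0.73 and HSP21 by 1.29 and 0.43. Both numbers thus gave a difference of one sign for every member. The sizes were similar for HSP70, HSP90.1, HSP101 and HSP18.2, whose arrays differed by similar amounts within each genotype, and apart for HSP17.4 and HSP21. The share of all probe sets with sizes this similar was not computed. The labels do not tie the arrays together by number, so this is a description only. Crosswise, antisense 1 read above wild type 2 for HSP70 (360.8 against 258.3) and HSP90.1 (220.2 against 204.9), and the single sign was lost. HSP17.4 lost it too, with antisense 2 at 29.2 against 38.3 in wild type 1. HSP101, HSP18.2 and HSP21 kept their sign in either pairing. Any probe set that separates the genotypes does so, which 29% of all did.

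What 5 of 6 members shared was the order of the arrays within each genotype. Antisense 1 read higher than antisense 2 for 6 of 6 members, and wild type 1 higher than wild type 2 for 5 of 6. The exception was HSP21, at 6.1 and 6.4. For 5 of 6 members array 1 was thus above array 2 within both genotypes, which held for 19.4% of the 22746 probe sets. It held for 16.8% of the probe sets that passed the filter and for 23.3% of those below it. The members were chosen with earlier results of these data known, so these shares serve as a description and not as a test. The median log2 difference over the 6 members was 0.55 between antisense 1 and 2 and 0.66 between wild type 1 and 2, beside 0.03 and -0.05 over all probe sets.

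Among the members that passed the filter, HSP70 differed more between arrays than HSP90.1. Antisense 1 read 1.99-fold above antisense 2, and wild type 1 read 2.19-fold above wild type 2. Of the 13648 probe sets that passed the filter, 3.38% had a ratio at least as high between the antisense arrays and 0.601% between the wild-type arrays. A ratio of at least 1.5 in both genotypes was found for 34 of them, or 0.249%, and HSP70 was 1 of these 34. Over all 22746 probe sets the share was 3.26%, with 2 of the 6 members, HSP70 and HSP18.2. The cut of 1.5 was not among the planned settings. HSP90.1 differed less between the arrays, by 0.38 log2 units in antisense leaves and 0.44 in wild-type leaves. Of the probe sets that passed the filter, 20.1% and 9.86% reached these values.

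The dim members varied within what dim probe sets do. Among the 9098 probe sets below the filter, 90% had log2 differences between -2.42 and 2.48 in the antisense line (1 minus 2), and in the wild type they lay between -2.51 and 2.31. HSP18.2 had log2 differences (1 minus 2) of 0.69 in antisense leaves and 0.88 in wild-type leaves. HSP17.4 had 0.41 and 1.12, HSP101 0.36 and 0.42, and HSP21 0.79 and -0.07. All 4 lay within these ranges in both genotypes.

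**Figure D3:**
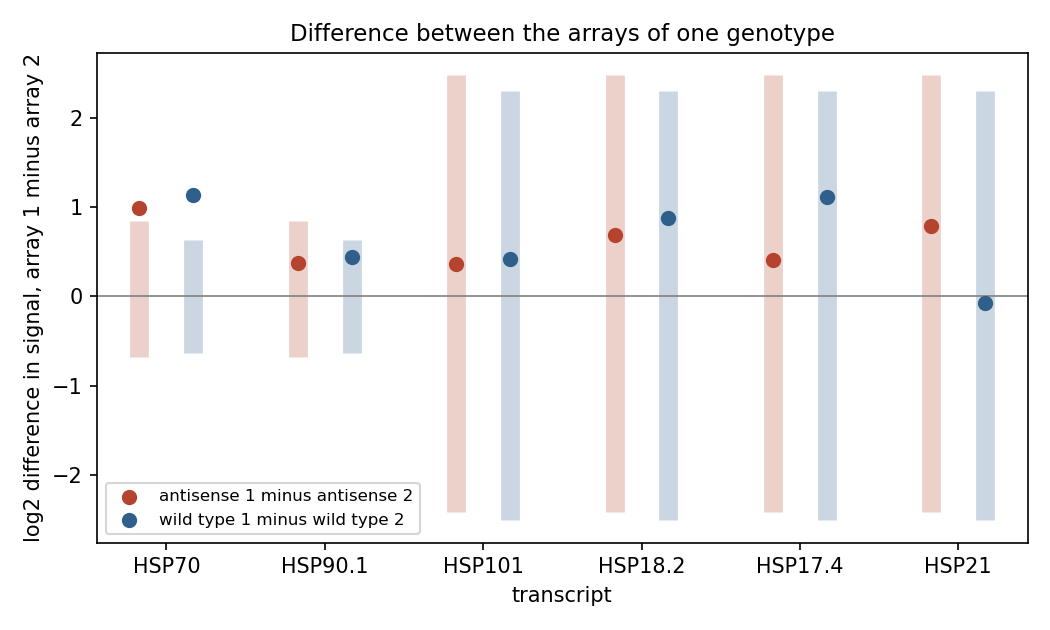
Log2 difference in signal between the 2 arrays of a genotype (1 minus 2) for each transcript, antisense in red and wild type in blue. Pale bars hold the central 90% of the probe sets that passed the filter (for HSP70 and HSP90.1) or did not (for the other 4), and HSP70 is the transcript whose points lie above both of its bars.

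The 4 arrays can be divided into pairs in 3 ways, by genotype, by array number, or crosswise (antisense 2 and wild type 1 against antisense 1 and wild type 2), and a probe set without ties separates 1 of them. HSP70, HSP90.1 and HSP17.4 had both arrays numbered 1 above both numbered 2, a pattern of 12.7% of the 22746 probe sets. HSP101 and HSP21 had both antisense arrays higher, beside 12.4% of all, and HSP18.2 had both antisense arrays lower, beside 16.6% of all. None of the 6 members separated the crosswise pairs, which 43.3% of all probe sets did. HSP70 and HSP90.1 ranked the arrays in the same order, wild type 1, antisense 1, wild type 2, antisense 2.

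Of 6 ratios that reflect RNA quality, 2 followed the array number. Signal from the 3' end over signal from the 5' end of a transcript, a ratio that grows with RNA degradation, was 5.40 and 4.11 for actin in the antisense line, against 4.74 and 4.15 in the wild type (first of 2 probe designs, arrays 1 and 2). For GAPDH, a glycolytic enzyme, it was 1.72 and 1.57 in the antisense line, against 1.66 and 1.47 in the wild type. In both of these, the arrays numbered 1 lay above those numbered 2. The second GAPDH design ran the other way within each genotype, at 1.17 and 1.28 in antisense leaves and 1.08 and 1.12 in wild-type leaves. The second actin design, at 3.31 and 3.37 in antisense leaves and 3.39 and 2.96 in wild-type leaves, and both ubiquitin designs went opposite ways in the 2 genotypes. The part of RNA quality in the difference of HSP70 between the arrays was not tested, and the labels do not say what the numbers stand for beyond separate pools.

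By distance over the 4 arrays between mean-centred log2 signals, the probe sets most like the mean profile of HSP70 and HSP90.1 were 246944_at and 262062_s_at, at 0.139 and 0.14 log2 units among 13646 compared. HSP70 and HSP90.1 themselves each lay 0.355 from that mean. Probe set 246944_at read 279.8 and 173.3 in the antisense line, against 350.1 and 218.5 in the wild type, and 262062_s_at read 151.3 and 103.7, against 235.6 and 140.4. They were picked by their likeness over these same arrays, and neither is paired with a gene here. Other heat stress genes (the remaining small heat shock proteins, HSP70 and HSP90 relatives, co-chaperones and heat shock factors) were not analysed here, as no table used pairs their probe sets with loci.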

How the data were processed

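Leaf RNA of 4 samples was measured on 1-colour Affymetrix ATH1 arrays. Per the labels' descriptions, the authors computed signals with MicroArray Suite 5.0. The deposited intensity values are linear and had been scaled per array (mean after trimming 2% at each end 500.05 on each), so they were not scaled again. Scaling of this kind hides any change common to all transcripts. Detection calls were not used. A quality sheet was not used.

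Values were log2-transformed. The 64 control probe sets and the 40% of the other 22746 with the lowest mean were left out, and 13648 were tested with limma 3.58.1 in R 4.3.3 (lmFit, eBayes with an intensity trend, Benjamini-Hochberg adjustment over all tested, threshold 0.05). The fit was run on simulated data with independent noise of 1 size for all probe sets. The only condition set there was a small bias of the differences, so that run does not vouch for the p-values. Precision is limited by the number of arrays, with a median half-width of 0.55 log2 units for the 95% intervals. Alternatives were quantile and median scaling, an offset of 8.1 (10th percentile) before the log, no filter, a 60% filter, no trend, robust eBayes, the array number as a replicate block, leaving out each array and a threshold of 0.1. A crossed block, and the block without a filter, were added after seeing the data.

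The array numbers of the 2 genotypes were not taken as pairs in the main fit, since the labels do not tie them together. All 6 members are named, plus the 2 probe sets nearest in profile. Members and lists were chosen with earlier results of these data known. The planned heat stress lists and leaf markers were not analysed, nor were promoter or protein sequences.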

Additional observations from a re-analysis of the deposited data

How the results depend on the processing

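Of the 6 heat shock protein probe sets, limma called 0 at an adjusted p of 0.05 under every alternative run (2 tested with the filter, 6 without it, 1 with the 60% filter), with the replicate block and the crossed block included, and 0 at an adjusted p of 0.1. The count over all probe sets was 0 with the replicate block, no filter, the 60% filter, no trend and robust eBayes. It was 1 at an adjusted p of 0.1, 1 under quantile normalization, 1 under median scaling, 2 with the offset, and 1 to 12 with 1 array left out (12 without antisense 2), where a lone array is assumed to vary like the other genotype. Pairing the arrays crosswise, chosen after seeing the data in view of the correlation of -0.42 between same-numbered deviations, gave 44. With the array number as a replicate block the 95% interval of HSP70 narrowed to -1.21 to 0.05 (limma, unadjusted p = 0.0653, adjusted p above 0.99), and without a filter that of HSP101 widened to include 0 (-0.03 to 3.21). The median log2 difference of the 6 members ran from -0.36 to 0.40 with 1 array left out. HSP70 and HSP90.1 stayed lower in the antisense line under each alternative that tested them. The filter settings, the trend, robust eBayes and the blocks cannot change this difference of means, so its sign was fixed there. Among the alternatives that could move it, the difference was smallest without wild type 1, at -0.02 for HSP70 and -0.09 for HSP90.1. The offset shrank the log2 difference of HSP101 from 1.59 to 1.21 and that of HSP21 from 0.86 to 0.45, as an offset does to dim signals by construction, and quantile normalization turned the small wild-type difference of HSP21 (1 minus 2) from -0.07 to 0.02. The 2 arrays per genotype and, for 4 of 6 members, signals in the range of the Bacillus controls limit what can be seen.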
